A study of Mus musculus with 6 samples.

Results

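The genes described here are 41 that encode enzymes, helper proteins, membrane proteins and 1 regulator of the lysosome, taken by symbol from a mouse kidney table of raw RNA-seq counts. All 41 symbols had 1 row each among the table's 46095 rows, and all 41 passed the low-count filter that left 15367 genes for testing. The kidneys came from mice on a C57BL/6 background, 3 labelled DHT (dihydrotestosterone, a potent androgen) and 3 labelled control. The strain label names the polycystic ovary syndrome (PCOS) model for both groups, so only the treatment label parts them, and no source used here gives the dose, duration, age or vehicle. Whether the replicates came from separate animals is also unstated, so the p-values cover only the variation among these libraries, which may be technical.

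The lysosome is the acidic compartment in which cells break down proteins, lipids, glycogen and glycosaminoglycans, the sulfated sugar chains of the matrix. In the kidney the proximal tubule is rich in lysosomes, because it takes up filtered proteins and digests them there. Many lysosomal genes are switched on together by the transcription factor Tfeb, which binds a short DNA sequence called the CLEAR element, whose centre is an E-box. Gusb, which encodes beta-glucuronidase, is known in mice as a kidney gene raised by androgens, and the question here was whether it rose alone or with the rest of the lysosome.

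Total depth was 15.05 to 18.62 in DHT libraries and 15.99 to 19.33 in control libraries, in units of 1e6 counts. The 41 genes together took 0.985% to 1.14% of counts in DHT libraries and 0.956% to 1.02% in control libraries. The least counted value was 82 counts, for Gla in DHT replicate 1, and the most counted 34664, for Psap in DHT replicate 3. Levels below are counts per 1e6 (CPM) on library sizes scaled by TMM (trimmed mean of M-values), and a gene is said to have passed when edgeR's quasi-likelihood test, adjusted by Benjamini-Hochberg over all 15367 genes, gave a p under 0.05.

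Few of the lysosomal genes passed. Of the 41 genes, 2 passed as higher in DHT, Galns and Gusb, and 0 passed as lower. That is 4.88% of the genes, where 1.38% of all tested genes passed as higher and 1.46% as lower. At an unadjusted edgeR p under 0.05, 7 were higher and 1 lower, where 12% of all tested genes were higher and 12% lower. The median log2 fold change (DHT over control) was 0.10 over the 41 genes and 0.00 over all genes tested. The log2 fold change was positive for 30 of the 41 genes, where it was for 7736 of all 15367 tested genes. With libraries scaled by total counts alone it was positive for 20 of the 41. The median over all tested genes was then -0.101. With DESeq2 5 passed as higher (Ctsz, Fuca1, Galns, Gusb and Psap), where 5.56% of all genes did. Without DHT replicate 2, which stood apart from the other DHT libraries, 5 passed in edgeR (Ctsz, Fuca1, Galns, Glb1 and Gusb), where 4.72% did. In 33 of the 41 genes the log2 fold change lay within 0.5 of 0, where it did in 11420 of all 15367 tested genes.

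Every DHT library lay above every control library in 9 genes, or 22% of them, where 14.8% of all tested genes did so. These were Gusb, Galns, Naglu, Fuca1, Ctsd, Ctsl, Ctsz, Psap and Npc2. Every DHT library lay below every control library in 4 genes, Gaa, Manba, Arsa and Cln3, or 9.76%, where 15% of all tested genes did so. DHT replicate 3 held the highest value of all 6 libraries in 21 of the 41 genes and control replicate 3 the lowest in 11.

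**Figure D1:**
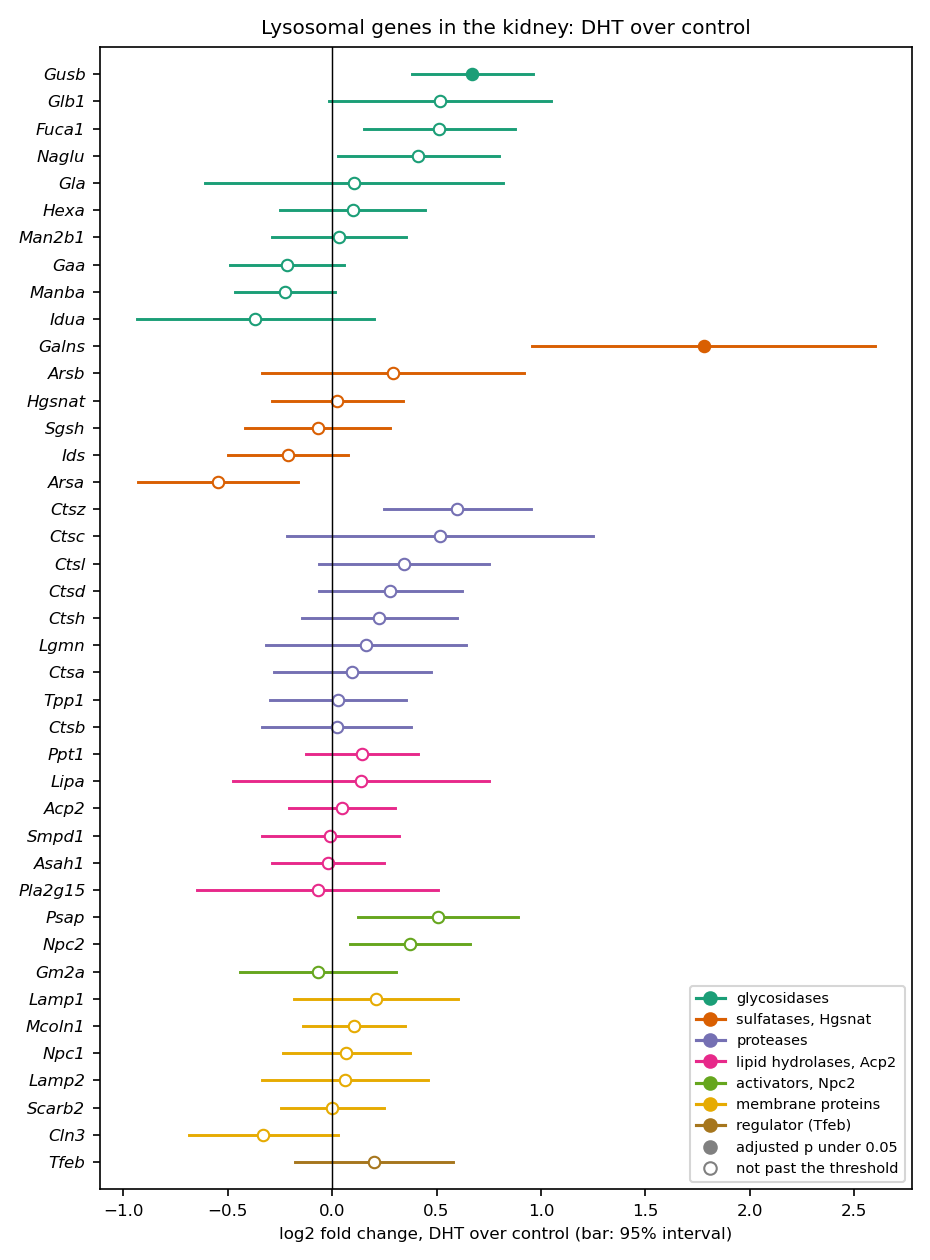
Log2 fold change of DHT over control for each of the 41 lysosomal genes, with its 95% interval as a bar, grouped and coloured by role; filled points passed the test. Galns at 1.78 and Gusb at 0.67 are the filled points. Of the 41 genes 33 lie within 0.5 of 0, as do 11420 of all 15367 tested genes.

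Gusb (chromosome 5, 129989011 to 130003049, minus strand, GRCm38) encodes beta-glucuronidase, which removes glucuronic acid from the ends of glycosaminoglycan chains. Its level was 47.6, 40.2 and 42.2 CPM in DHT replicates 1, 2 and 3, against 30.7, 24.8 and 26.2 CPM in control replicates 1, 2 and 3. The lowest DHT library was above the highest control library, and the 3 DHT libraries lay close together. Gusb averaged 43.3 ± 3.84 CPM in DHT, against 27.2 ± 3.07 CPM in control (SD, n = 3 each), a fold change of 1.59 with a log2 value of 0.67 ± 0.13 (SE; 95% interval 0.38 to 0.96; edgeR adjusted p = 0.0376). It rests on 2111 counts in DHT and 1507 in control. The call was lost with total-count scaling (log2 fold change 0.56, adjusted p = 0.0647 for Gusb), where 132 of all tested genes passed as higher, against 212 with TMM scaling. Leaving out DHT replicate 1 (adjusted p = 0.116), DHT replicate 3 (0.128), control replicate 2 (0.145) or control replicate 3 (0.0913) also ended it, while the log2 fold change of Gusb stayed between 0.60 and 0.69. In these 4 settings few genes of any kind passed: 8, 0, 2 and 33 of all tested genes as higher, in the same order.

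The sequence around the Gusb start is shown because motifs of lysosomal and androgen regulators were searched in such windows. Sequence outside these windows was not searched. RefSeq's promoter table (GRCm38.p6) gives for Gusb the minus-strand window chr5:130003000-130003299, from 250 bases before the start to 50 after it, and none of the motifs searched below is in it, so no letter is in capitals.
Gusb: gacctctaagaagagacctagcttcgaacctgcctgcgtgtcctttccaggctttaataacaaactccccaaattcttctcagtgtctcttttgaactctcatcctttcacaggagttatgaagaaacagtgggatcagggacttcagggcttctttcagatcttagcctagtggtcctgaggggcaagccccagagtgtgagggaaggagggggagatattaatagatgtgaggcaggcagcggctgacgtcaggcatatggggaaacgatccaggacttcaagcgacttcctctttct
The motifs searched on both strands were the E-box CACGTG, the CLEAR core TCACGTG that contains it, and the androgen receptor motif AGAACA, which overlaps neither. Absence of these letters says only that they are not in this window.

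The CLEAR core was common among the other lysosomal genes. The promoter table matched 35 of the 41 genes, all but Ctsb, Ctsh, Galns, Hgsnat, Asah1 and Npc1, and 12 of these 35 (34.3%) held TCACGTG in a window, against 4.29% of 27025 genes in the table. The androgen receptor motif AGAACA was held by 6 of the 35 (17.1%), against 21.3% of all genes. Stretches of 7 genes are printed to show the shared sequence. The first CLEAR core of each window and its overlapping copy are in capitals.
Glb1, chr9:114401015-114401049, plus strand: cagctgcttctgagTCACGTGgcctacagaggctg
Naglu, chr11:101070006-101070040, plus strand: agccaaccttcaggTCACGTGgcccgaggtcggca
Lamp1, chr8:13159085-13159119, plus strand: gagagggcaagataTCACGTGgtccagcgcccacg
Mcoln1, chr8:3500433-3500467, plus strand: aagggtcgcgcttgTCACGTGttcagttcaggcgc
Ctsa, chr2:164833746-164833781, plus strand: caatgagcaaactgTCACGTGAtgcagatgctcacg
Cln3, chr7:126583365-126583399, minus strand: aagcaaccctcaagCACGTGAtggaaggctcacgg
Arsa, chr15:89477421-89477455, minus strand: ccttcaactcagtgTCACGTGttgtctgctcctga
Of the 12 genes with a CLEAR core, 0 passed edgeR's test in either direction. Over all tested genes 1.38% passed as higher and 1.46% as lower, shares at which 12 genes would most often give 0 calls. Log2 fold changes of the 12 ran from -0.544 in Arsa to 0.517 in Glb1 with a median of 0.105. The part of Tfeb in these values was not tested. The 23 genes with a window but no core had a median of 0.098 and included Gusb. A motif match is a description of the sequence and not a bound site.

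The ratio of Gusb to each of the other 40 genes was taken in each library, which cancels library size. For 27 of the 40 genes (67.5%) the ratio was higher in every DHT library than in every control library. The same held against 62.9% of all tested genes, so the share within the lysosome was near the background. The 13 genes for which the ratio overlapped between groups were Galns, Ctsz, Fuca1, Psap, Naglu, Glb1, Ctsl, Ctsh, Ctsc, Arsb, Lipa, Gla and Pla2g15. With 3 libraries a group an exact two-sided permutation test cannot go below p = 0.1, so these ratios are given without a test.

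Galns had the largest fold change of the 41 genes, though its ratio to Gusb overlapped between groups. Galns (chromosome 8, 122578242 to 122611463, minus strand) encodes the sulfatase that removes sulfate from galactosamine and galactose in chondroitin and keratan sulfate. Its level was 134, 54.4 and 143 CPM in DHT replicates 1, 2 and 3, against 28.1, 35.8 and 32.8 CPM in control replicates 1, 2 and 3. The groups did not overlap, but DHT replicate 2 lay far nearer to the controls than the other DHT libraries did. Galns averaged 111 ± 48.9 CPM in DHT, against 32.2 ± 3.88 CPM in control (SD, n = 3 each), a fold change of 3.43 with a log2 value of 1.78 ± 0.35 (SE; 95% interval 0.96 to 2.60; edgeR adjusted p = 0.0489).

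The call of Galns was close to the threshold. Without DHT replicate 2 its log2 fold change was 2.10 (adjusted p = 0.000176). Without any 1 of the other 5 libraries it ran from 1.55 to 1.86 and Galns did not pass, with adjusted p between 0.11 and 0.146. In those 5 settings 0 to 113 of all tested genes passed as higher, against 212 with all 6 libraries. It also missed the threshold when no low-count filter was applied (0.132) and under limma-voom (0.0668). The ratio of Galns to the gene was higher in every DHT library than in every control library for 36 of the 40 other genes (90%), all but Gusb, Ctsc, Gla and Pla2g15, where 82.7% of all tested genes gave that result.

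The library pattern of Galns was set beside that of known androgen-raised kidney genes, a list of 8 that were chosen with earlier results known. In all 8 of them DHT replicate 2 was the lowest DHT library, a pattern for which no share over all genes was taken. Of the 8, 6 passed as higher, where 1.38% of all tested genes did. The log2 fold changes were 11.62 in Slco1a1, an organic anion carrier, 8.89, 4.19 and 3.95 in the cytochrome P450 genes Cyp2j13, Cyp2e1 and Cyp4b1, 2.56 in Timd2, a ferritin receptor, and 1.51 in Kap, the androgen-regulated kidney protein, which did not pass (edgeR adjusted p = 0.251). Slc7a13, an amino acid transporter of the straight proximal tubule, was at 739, 117 and 642 CPM in DHT replicates 1, 2 and 3, against 0.369, 1.5 and 0.792 CPM in control replicates. Odc1, the first enzyme of polyamine synthesis, was at 2539, 457 and 1726 CPM in DHT, against 413, 324 and 309 CPM in control (edgeR adjusted p = 0.0841). In Galns, too, DHT replicate 2 was the lowest DHT library by a wide gap. Gusb in DHT replicate 2 was 40.2 CPM, close to the 42.2 CPM of DHT replicate 3. Because the 8 genes were chosen with results of these libraries known, their pattern is a description only. Whether Galns or Gusb shares their regulation was not tested. Among all 41 lysosomal genes DHT replicate 2 was the lowest DHT library in 19 and the highest in 10.

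**Figure D2:**
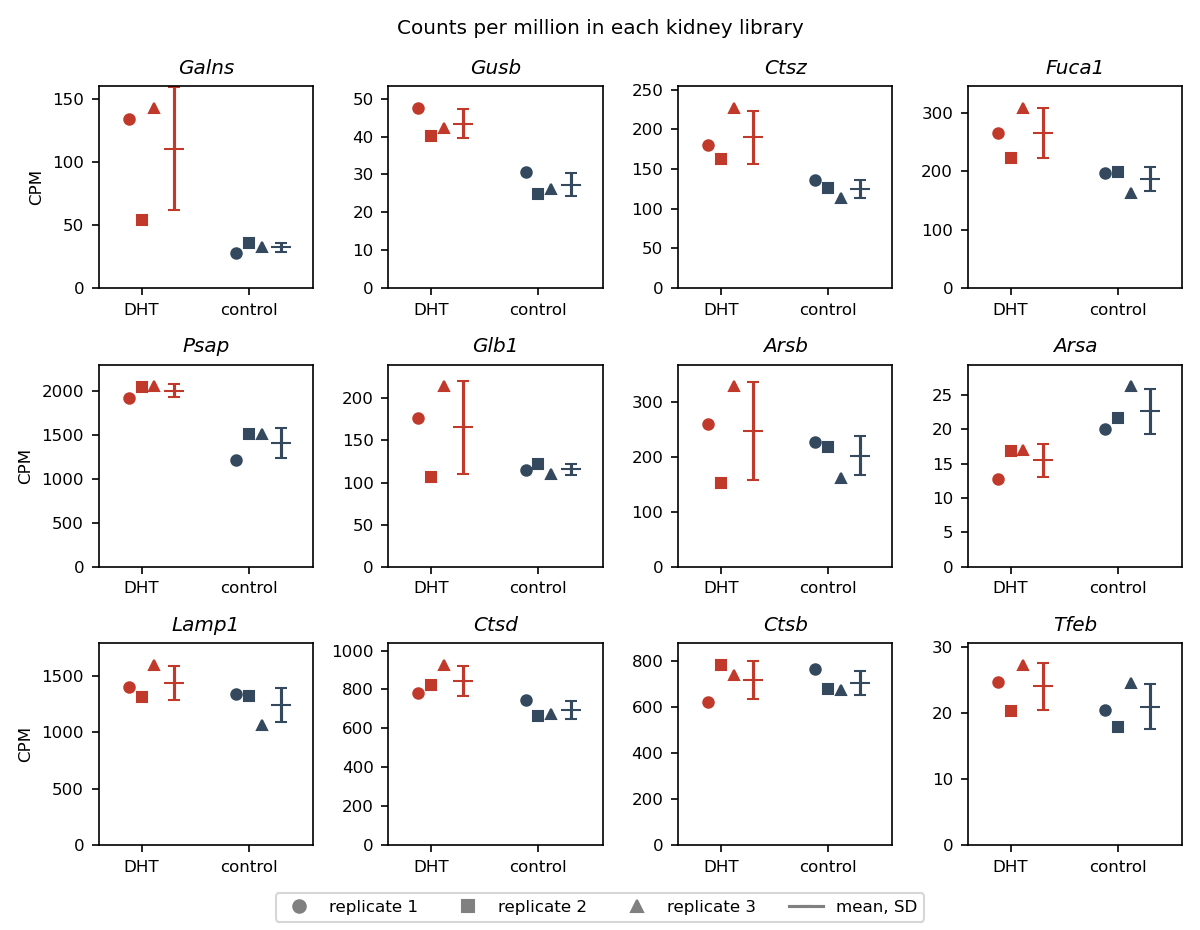
CPM (counts per 1e6) of 12 lysosomal genes in each library, DHT left of control, with 1 marker shape per replicate and the group mean and SD as a bar; each panel has its own axis from 0. Galns is high in DHT replicates 1 and 3 and at 54.4 CPM in DHT replicate 2, Gusb is between 40.2 and 47.6 CPM in all 3 DHT libraries, and the groups overlap in Glb1, Arsb, Lamp1, Ctsb and Tfeb.

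The other glycosidases, which cut sugars from glycans, did not pass in either direction. Fuca1, the fucosidase, was at 266, 223 and 309 CPM in DHT replicates 1, 2 and 3, against 198, 199 and 163 CPM in control replicates. These groups did not overlap, and the log2 fold change was 0.51 ± 0.16 (SE; edgeR adjusted p = 0.104). Glb1, the beta-galactosidase that acts on gangliosides and keratan sulfate, was at 176, 106 and 215 CPM in DHT, against 115, 122 and 110 CPM in control. DHT replicate 2 was here below every control library, and the log2 fold change was 0.52 ± 0.23 (adjusted p = 0.219).

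Naglu, which acts on heparan sulfate, was at 49.4, 45.8 and 62.9 CPM in DHT, against 31.7, 44.4 and 42.5 CPM in control (edgeR adjusted p = 0.181). Its groups were apart by little. Gaa, the acid glucosidase of glycogen, was at 102 ± 10.7 CPM in DHT, against 119 ± 5.81 CPM in control, and Manba, the beta-mannosidase, at 104 ± 4.09 CPM in DHT, against 121 ± 4.72 CPM in control (SD, n = 3 each). Both lay lower in every DHT library than in every control library, with log2 fold changes of -0.21 and -0.23 (in edgeR, adjusted p = 0.308 and 0.229). Hexa, the alpha subunit of hexosaminidase, was at 57.6, 85.7 and 78.0 CPM in DHT, against 73.0, 67.6 and 66.1 CPM in control. Its DHT values spanned the whole control range. Man2b1 and Gla, the alpha-mannosidase and alpha-galactosidase A, had log2 fold changes of 0.03 ± 0.14 and 0.10 ± 0.31, and Idua, the iduronidase of heparan and dermatan sulfate, -0.37 ± 0.25 (SE).

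The other sulfatases had fold changes in both directions, and none passed. Arsa, which desulfates the myelin and kidney lipid sulfatide, had the lowest fold change of the 41 genes. It was at 12.8, 16.8 and 17.0 CPM in DHT replicates 1, 2 and 3, against 20.04, 21.6 and 26.3 CPM in control replicates. The groups did not overlap, and the log2 fold change was -0.54 ± 0.17 (SE; 95% interval -0.93 to -0.16; edgeR adjusted p = 0.104). An antisense RNA covers 18.8% of the exonic bases of Arsa on the opposite strand, and since no source used here states strand use, its reads cannot be told apart from those of Arsa. The same limit holds for Arsb, where 2 genes on the opposite strand cover 32.3% and 7.67% of the exonic bases, for Ctsl (26.8%), for Sgsh (21.6%), for Hexa and Ctsb (12.8% each), for Acp2 (12.6%) and for Ctsa (10.5% and 6.87%, by 2 genes).

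Arsb, the sulfatase of dermatan sulfate, was at 261, 152 and 329 CPM in DHT, against 227, 218 and 162 CPM in control. As in Galns and Glb1, DHT replicate 2 was the lowest DHT library, and here it was the lowest of all 6. Arsb had a log2 fold change of 0.29 ± 0.27 (SE; edgeR adjusted p = 0.548). Ids and Sgsh, which remove sulfate from heparan sulfate, had log2 fold changes of -0.21 ± 0.13 and -0.07 ± 0.15, and Hgsnat, which acetylates heparan sulfate for its breakdown, 0.02 ± 0.14 (SE), none past the threshold.

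All 9 proteases had a log2 fold change above 0 with TMM scaling, and 0 passed. With total-count scaling Ctsa, Ctsb and Tpp1 turned negative. Ctsz, a cysteine carboxypeptidase, was at 180, 162 and 227 CPM in DHT replicates 1, 2 and 3, against 136, 127 and 113 CPM in control replicates. The groups did not overlap, and the log2 fold change was 0.60 ± 0.15 (SE; 95% interval 0.25 to 0.95; edgeR adjusted p = 0.0691). Ctsz passed with DESeq2 (0.00888), with no low-count filter (0.0371) and without DHT replicate 2 (0.0326).

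Ctsc, a dipeptidyl peptidase that activates serine proteases of leukocyte granules, was at 36.8, 82.2 and 42.4 CPM in DHT replicates 1, 2 and 3, against 33.6, 32.7 and 46.5 CPM in control replicates. Its high value was in DHT replicate 2 alone. Ctsd and Ctsb, the most abundant aspartic and a major cysteine protease of lysosomes, were at 780, 822 and 927 CPM and at 623, 783 and 740 CPM in DHT, against 746, 664 and 674 CPM and 764, 677 and 675 CPM in control. Ctsd lay higher in every DHT library, by a narrow gap, and Ctsb overlapped, with log2 fold changes of 0.28 ± 0.15 and 0.02 ± 0.16 (SE; adjusted p in edgeR = 0.293 and 0.943). A second annotated gene on the same strand covers 34.4% of the exonic bases of Ctsd, so its counts are uncertain. Ctsl, Ctsh, Lgmn, Ctsa and Tpp1, which encode an endopeptidase, an aminopeptidase, the asparaginyl endopeptidase, a carboxypeptidase that also shields beta-galactosidase, and the tripeptidyl peptidase, had log2 fold changes from 0.03 (Tpp1) to 0.34 (Ctsl).

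Psap was the most abundant of the 41 genes per length of exon, at 731 CPM per kb in DHT and 514 CPM per kb in control, where the median gene was at 30.1 in DHT and 23.3 in control. It encodes prosaposin, the precursor of the saposins that present sphingolipids to their hydrolases. Psap was at 1918, 2043 and 2056 CPM in DHT replicates 1, 2 and 3, against 1210, 1516 and 1507 CPM in control replicates. All DHT libraries were higher, and the log2 fold change was 0.51 ± 0.17 (SE; edgeR adjusted p = 0.121; 0.00623 with DESeq2).

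Npc2, which passes cholesterol out of the lysosome, was at 164 ± 11.98 CPM in DHT, against 127 ± 12.7 CPM in control (SD, n = 3 each), with every DHT library higher and a log2 fold change of 0.37 ± 0.13 (SE; edgeR adjusted p = 0.124). Its partner in the membrane, Npc1, was at 26.4 ± 3.49 CPM in DHT, against 25.2 ± 1.4 CPM in control (adjusted p = 0.789). Gm2a, the activator that lifts a ganglioside to hexosaminidase, was at 247 ± 34.8 CPM in DHT, against 259 ± 38.7 CPM in control (SD, n = 3 each). Neither gene's groups were apart.

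The lipid hydrolases showed the narrowest range of fold changes among the role groups with more than 1 gene. In Asah1 (acid ceramidase), Smpd1 (acid sphingomyelinase), Lipa (acid lipase), Ppt1 (palmitoyl-protein thioesterase), Pla2g15 (a phospholipase) and the acid phosphatase Acp2, log2 fold changes ran from -0.07 to 0.15. In these genes 0 of the 6 had groups apart, where 14.8% of all tested genes lay above and 15% below. A list of 6 genes is too short to set this 0 apart from those shares. The smallest edgeR adjusted p among the 6 genes was 0.483. Lipa ranged widely among the control replicates, at 355, 229 and 161 CPM, around the 265, 245 and 310 CPM of the DHT replicates.

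The membrane proteins gave no call either. Lamp1, the abundant glycoprotein of the lysosomal membrane, was at 1404, 1309 and 1597 CPM in DHT replicates 1, 2 and 3, against 1341, 1318 and 1068 CPM in control replicates. Lamp2, its relative that also serves autophagy, was at 856, 793 and 838 CPM in DHT, against 882, 871 and 632 CPM in control. In both the groups overlapped, with log2 fold changes of 0.21 ± 0.17 and 0.06 ± 0.17 (SE; adjusted p in edgeR = 0.49 and 0.858). For Lamp2 the sign was negative with total-count scaling.

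Scarb2, which carries glucocerebrosidase to the lysosome, had nearly equal means, 61.6 ± 4.995 CPM in DHT, against 61.5 ± 2.27 CPM in control, and Mcoln1, the calcium release channel, 53.8 ± 3.91 CPM in DHT, against 50.04 ± 2.47 CPM in control (SD, n = 3 each). Cln3, whose loss causes a juvenile neuronal storage disease in humans, was at 18.5, 23.3 and 21.4 CPM in DHT, against 23.9, 24.0 and 31.5 CPM in control. Every DHT library of Cln3 was lower, with a log2 fold change of -0.33 ± 0.16 (SE; edgeR adjusted p = 0.241). Tfeb, a regulator of many lysosomal genes, was at 24.8, 20.3 and 27.4 CPM in DHT, against 20.5, 17.9 and 24.6 CPM in control. Its groups overlapped, and its log2 fold change was 0.20 ± 0.17 (SE; adjusted p = 0.495).

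Because a gene that misses the threshold may still differ, the width of the intervals was read as well. In 20 of the 41 genes the 95% interval of the fold change lay within 1.5-fold in both directions, and in 38 within 2-fold. In 29 genes the upper end of the interval lay below the 0.67 estimated for Gusb. No share over all tested genes was taken for the 20, the 38 or the 29, so they are no result about these genes. The interval of Gusb itself ran from 0.38 to 0.96, and some of the 29 reached into it, such as Hexa with an upper end of 0.45. The interval excluded 0 in 8 genes, before any adjustment over genes. At an unadjusted edgeR p under 0.05, 12% of all tested genes were higher and 12% lower.

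Per length of exon, Gusb and Galns were among the less abundant genes of the set. Among the 41 genes Gusb ranked 31 in DHT, at 9.53 CPM per kb, and 34 in control, at 5.99 CPM per kb. Galns ranked 15 in DHT, at 41.7 CPM per kb, and 28 in control, at 12.2 CPM per kb. The least abundant gene in both groups was Gla, at 2.28 CPM per kb in DHT and 2.12 CPM per kb in control.

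**Figure D3:**
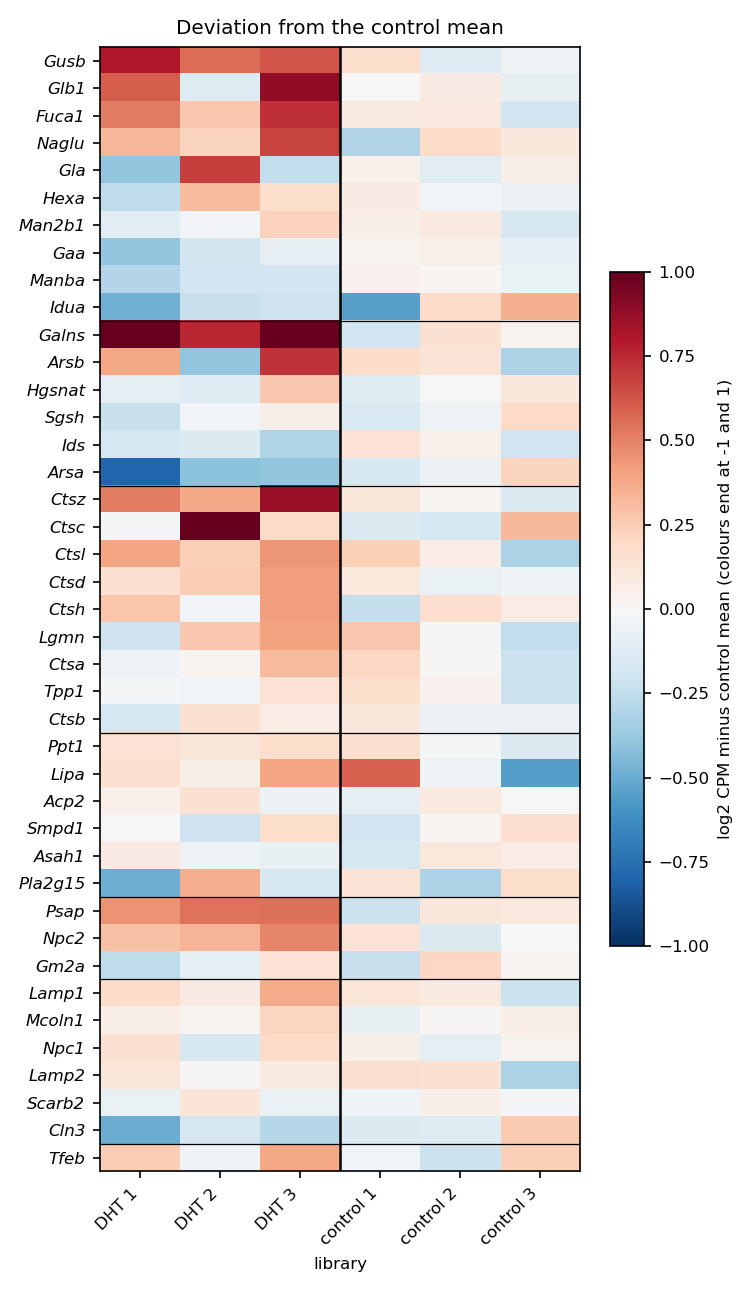
Log2 CPM minus the control mean for each of the 41 genes (rows, grouped by role in the order glycosidases, sulfatases with Hgsnat, proteases, lipid hydrolases with Acp2, activators with Npc2, membrane proteins, Tfeb) in the 6 libraries (columns), with colours ending at -1 and 1. The rows of Galns and Gusb are raised in all 3 DHT libraries, Ctsc and Gla are raised in DHT replicate 2, and most other rows are pale.

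Markers of other cell types differed between the libraries. The 16 macrophage markers summed to 165, 534 and 284 CPM in DHT replicates 1, 2 and 3, against 166, 215 and 280 CPM in control replicates, and 15 of the 16 were highest in DHT replicate 2. Of the 41 lysosomal genes, 7 were also highest in that library (Ctsc, Gla, Hexa, Ctsb, Scarb2, Acp2 and Pla2g15), and 21 were highest in DHT replicate 3. No share over all genes was taken, so the 7 are no result about these genes. Among 8 lysosomal genes typical of phagocytes, Ctss, the cathepsin of antigen-presenting cells, was at 19.2, 91.6 and 35.7 CPM in DHT, against 23.7, 20.9 and 27.0 CPM in control, and Lyz2, the macrophage lysozyme, at 14.4, 117 and 58.97 CPM in DHT, against 22.9, 23.6 and 50.3 CPM in control. Of the 6 of these 8 genes that were tested, 0 passed edgeR's test. The part of macrophages in the values of the lysosomal genes was not tested. This includes Gusb and Galns, which were not highest in DHT replicate 2.

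The 14 proximal tubule markers, all of which were detected, summed to 23430, 19350 and 27690 CPM in DHT replicates 1, 2 and 3, against 22060, 22140 and 17850 CPM in control replicates. DHT replicate 3 was highest and control replicate 3 lowest. The same was so for the summed level of the 41 genes (12140 and 8720 CPM). The rest of the order differed. DHT replicate 2 was below control replicates 1 and 2 for the markers but above them for the 41 genes (10700, against 9978 and 9786 CPM). Of the 14 markers, 7 had a log2 fold change above 0 and 7 below, with a median of 0.058. The 10 markers of other tubule segments summed to 7639, 6727 and 7700 CPM in DHT replicates 1, 2 and 3, against 8430, 9169 and 13720 CPM in control replicates, so control replicate 3 was the highest there, and their median log2 fold change was -0.47 with 0 of 10 passing edgeR's test (2 lower and 0 higher at an unadjusted p under 0.05). The 10 podocyte and endothelial markers summed to 879.4, 1436 and 964.8 CPM in DHT, against 1056, 993.7 and 1032 CPM in control, highest in DHT replicate 2. The part of tubule, podocyte or endothelial content in the lysosomal values was not tested. In bulk kidney, fewer cells of a type and less RNA per cell cannot be told apart.

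**Figure D4:**
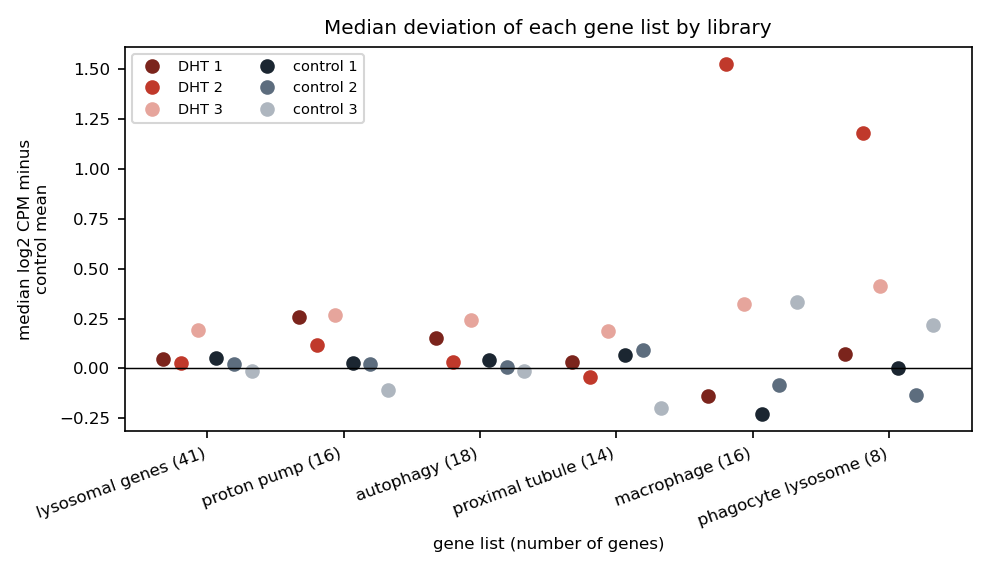
Median over the genes of each list of log2 CPM minus the control mean, 1 point per library, DHT libraries left of control libraries within each list. The 41 lysosomal genes lie between -0.012 and 0.192 in all libraries, whereas the macrophage list reaches 1.52 and the phagocyte lysosome list 1.18 in DHT replicate 2.

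Other genes of the pathway were read in the same test, where 1.38% of all tested genes passed as higher and 1.46% as lower. At these shares few calls would fall on lists of this size. The low counts here and in the single lists below therefore say little about them. Of 130 further genes in 7 lists (other hydrolases, other membrane proteins, sorting receptors, the proton pump, nutrient-sensing regulators, autophagy and phagocyte lysosomal genes), 126 were tested, 1 passed as higher and 1 as lower. Every DHT library was above every control library in 28 of the 126 and below in 16, where 14.8% of all tested genes were above and 15% below. Their median log2 fold change was 0.086. Lamtor4, a subunit of the Ragulator complex that docks mTORC1 on the lysosome, was at 80.5, 81.3 and 77.1 CPM in DHT, against 51.8, 54.3 and 60.7 CPM in control (log2 fold change 0.52 ± 0.11 SE, edgeR adjusted p = 0.0453). Tpcn1, a channel of endosomes and lysosomes, was at 103, 126 and 138 CPM in DHT, against 200, 213 and 189 CPM in control (log2 fold change -0.72 ± 0.14 SE, adjusted p = 0.0398). The groups overlapped in neither gene. Next to Tpcn1 among the membrane proteins, Cd63, a tetraspanin of lysosomes and late endosomes, was at 754, 795 and 737 CPM in DHT, against 538, 506 and 539 CPM in control (log2 fold change 0.53 ± 0.14 SE, adjusted p = 0.0693). Pqlc2, an exporter of basic amino acids, was at 27.8, 21.6 and 22.7 CPM in DHT, against 45.3, 37.7 and 29.5 CPM in control (log2 fold change -0.64 ± 0.18 SE, adjusted p = 0.0795).

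Among 27 further hydrolases tested 0 passed. Ctbs, the chitobiase that finishes the breakdown of N-linked glycans, had the smallest p. It was at 98.5, 50.8 and 79.2 CPM in DHT, against 33.5, 41.1 and 31.8 CPM in control (log2 fold change 1.10 ± 0.23 SE, edgeR adjusted p = 0.05002). Prcp, a carboxypeptidase, was at 61.3 ± 4.17 CPM in DHT, against 40.3 ± 6.32 CPM in control (SD, n = 3 each; edgeR adjusted p = 0.0528).

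The proton pump that acidifies the lysosome had a positive log2 fold change in 13 of 16 subunit genes, a median of 0.252, and 0 calls; with total-count scaling 12 of the 16 were positive, with a median of 0.144. Every DHT library was above every control library in 8 of these 16, where 14.8% of all tested genes were so placed. Atp6v1d and Atp6v1f, subunits of the cytosolic part of the pump, had log2 fold changes of 0.38 ± 0.12 and 0.40 ± 0.14 (SE; adjusted p in edgeR = 0.113 and 0.137), and Atp6v0e, of the membrane part, 0.33 ± 0.11 (adjusted p = 0.128). Of 14 sorting receptors and carriers 0 passed, and Gga3, an adaptor that packs mannose phosphate receptors into vesicles, had the smallest p (log2 fold change -0.72 ± 0.18 SE, edgeR adjusted p = 0.063). M6pr, a mannose phosphate receptor that delivers hydrolases, was at 283 ± 38.5 CPM in DHT, against 226 ± 21.6 CPM in control, and Lrp2, or megalin, the uptake receptor of the proximal tubule, at 1941 ± 142 CPM in DHT, against 2573 ± 355 CPM in control (SD, n = 3 each). In Lrp2 every DHT library was lower (edgeR adjusted p = 0.209).

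Of 18 autophagy genes 0 passed, and Bnip3, a mitophagy receptor, had the smallest p (log2 fold change 0.59 ± 0.13 SE, edgeR adjusted p = 0.0539). Among 21 regulators of nutrient sensing, Mitf, a relative of Tfeb, was at 20.2, 21.0 and 17.9 CPM in DHT, against 28.5, 27.7 and 28.4 CPM in control (log2 fold change -0.52 ± 0.12 SE, adjusted p = 0.0557), with groups apart. Rheb, the activator of mTORC1, was at 85.4 ± 3.66 CPM in DHT, against 63.9 ± 5.29 CPM in control (SD, n = 3 each; adjusted p = 0.07), and Tsc2, which restrains Rheb, at 74.2 ± 10.6 CPM in DHT, against 100.5 ± 4.20 CPM in control (adjusted p = 0.091).

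Beta-glucuronidase is known in mice to be held in part in the endoplasmic reticulum by egasyn, the carboxylesterase encoded by Ces1e. Ces1e was at 155, 126 and 148 CPM in DHT replicates 1, 2 and 3, against 122, 81.4 and 44.3 CPM in control replicates. Every DHT library was higher, but the control values spread widely, and Ces1e did not pass (log2 fold change 0.79 ± 0.33 SE, edgeR adjusted p = 0.196). Its relatives Ces1f and Ces1g, liver-type carboxylesterases, passed. Ces1f was at 1248, 519 and 995 CPM in DHT, against 33.6, 110 and 106 CPM in control (log2 fold change 3.46 ± 0.54 SE, adjusted p = 0.0345). Ces1g was at 26.9, 17.2 and 9.37 CPM in DHT, against 2.89, 2.23 and 1.19 CPM in control (log2 fold change 3.09 ± 0.46 SE, adjusted p = 0.0254). These genes were listed for their link to Gusb with earlier results of the same libraries known.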

How the data were processed

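RNA was measured in 6 kidney samples, 3 DHT and 3 control. Per the submitters' processing notes, HISAT2 2.0 and build mm10 were used; no source used here names the counting tool, annotation or strand setting. The authors deposited raw counts per gene symbol, matched here to samples by title. Gene lists and members were chosen with earlier results of these data known. Genes were kept by filterByExpr (minimum count 10, minimum total 15), scaled by TMM and tested with edgeR 4.0.16 in R 4.3.3 (robust quasi-likelihood fit, group as its term, Benjamini-Hochberg over 15367 genes). SE values are those the F statistic implies. The script was tested on simulated data. The text gives all 41 members, values by library for called genes, a fixed set of defining genes and the largest changes, and up to 3 genes of each other list. Glb1, Fuca1, Arsb, Naglu, Ctsc and Lipa by library were chosen after their values were seen. Alternatives were other scalings and filters, DESeq2 1.42.0, limma-voom (limma 3.58.1), no robust step, a replicate block and leaving out each library. Positions and exon lengths come from GENCODE M21 (GRCm38, the assembly of mm10). Of the 41 genes, 16 share exonic bases with another gene, and BLAST 2.17.0+ found 0 with a transcript elsewhere at 95% identity over 50% of its length.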

Additional observations from a re-analysis of the deposited data

How the results depend on the processing

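The number of lysosomal genes called higher was 2 (212 of all tested genes), and it was 1 with total counts (Galns; 132 of all), 1 with limma-voom (Gusb; 148), 0 with the replicate block (36) and 5 with DESeq2 (854). Leaving out 1 library gave 0 to 5: 5 without DHT replicate 2 (745 of all), 1 without control replicate 1 (Gusb; 113) and 0 without any 1 of the other 4, where 0 to 33 of all tested genes passed as higher. In the settings named so far, the members' count was lower where fewer of all genes passed and higher where more did. With no low-count filter 418 of all genes passed as higher, yet the members' count stayed at 2, with Ctsz and Gusb. The causes of these changes were not tested. The number called lower was 0 in every setting run. In the other 7 lists the 2 calls became 7 with no low-count filter, 16 with DESeq2, 1 with limma-voom, 0 with the replicate block and 0 to 8 on leaving out a library. Over all genes, those called higher and lower were 212 and 225 in the main test, 418 and 434 with no low-count filter, 854 and 780 with DESeq2, 148 and 171 with limma-voom and 36 and 49 with the replicate block. The log2 fold change of Gusb was 0.56 with total counts and 0.67 with the replicate block, both not past the threshold (adjusted p = 0.0647 and 0.0665 for Gusb), and 0.60 to 0.76 on leaving out a library. The median over the 41 genes was -0.0056 with total counts and 0.04 to 0.15 on leaving out a library. The count of 27 genes whose Gusb ratio did not overlap between groups was 27 to 34 on leaving out a library. It could not have fallen, because removing a library cannot create an overlap, so its range is no check.

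Deviations of same-numbered libraries from their group means had r = 0.0845, -0.163 and 0.0535 for replicates 1, 2 and 3. Between differently numbered libraries r ran from -0.154 to 0.14. With 3 libraries a group these values cannot decide whether the replicate numbers mark a pairing. The block leaves fewer degrees of freedom, and its part in the lost calls was not tested.

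The sign changed in some setting for 18 genes, none called there and all within 0.14 of 0 on the log2 scale by the main test. With total counts the values were -0.0081 (Ctsa), -0.076 (Ctsb), -0.092 (Hgsnat), -0.071 (Man2b1), -0.038 (Lamp2), -0.095 (Scarb2), -0.048 (Npc1), -0.0056 (Mcoln1), -0.072 (Tpp1) and -0.050 (Acp2). Scarb2 was also -0.0037 with the 1 CPM filter, -0.000184 with limma-voom and -0.000254 with the replicate block. On leaving out a library the ranges were -0.015 to 0.10 (Acp2), -0.11 to 0.033 (Asah1), -0.023 to 0.20 (Ctsa), -0.057 to 0.11 (Ctsb), -0.35 to 0.31 (Gla), -0.18 to 0.041 (Gm2a), -0.031 to 0.25 (Hexa), -0.11 to 0.089 (Hgsnat), -0.087 to 0.14 (Lamp2), -0.10 to 0.48 (Lipa), -0.075 to 0.11 (Man2b1), -0.35 to 0.12 (Pla2g15), -0.076 to 0.038 (Scarb2), -0.15 to 0.036 (Sgsh), -0.11 to 0.078 (Smpd1) and -0.077 to 0.11 (Tpp1). The causes of these shifts were not tested.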

Other observations

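The genes within 250 kb of Gusb and of Galns were looked at after the values of both were seen. Of 14 protein-coding neighbours of Gusb, all tested, 0 passed edgeR's test in either direction. The smallest adjusted p there was that of Sbds, a ribosome assembly factor, with a log2 fold change of 0.41 (edgeR adjusted p = 0.0654). Every DHT library was above every control library in Sbds, Chchd2, Crcp and Sumf2. Of 17 neighbours of Galns 13 were tested, 1 passed as higher and 0 as lower. Over all tested genes 1.38% passed as higher and 1.46% as lower. Every DHT library was above every control library in 14.8% of them and below in 15%. With so few neighbours these counts say little about either place.

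The neighbour that passed was Trappc2l, which encodes a subunit of a vesicle tethering complex. Its annotated start lies 177 bases from that of Galns, and the genes run in opposite directions. Trappc2l was at 35.0, 34.6 and 35.9 CPM in DHT replicates 1, 2 and 3, against 23.0, 23.8 and 26.8 CPM in control replicates (log2 fold change 0.52 ± 0.11 SE, edgeR adjusted p = 0.0497). Every DHT library was higher, and DHT replicate 2 did not differ from the other DHT libraries as it did in Galns. Aprt, the purine salvage enzyme on the other side of Galns, was at 48.8 ± 2.60 CPM in DHT, against 34.4 ± 2.71 CPM in control (SD, n = 3 each). Every DHT library of Aprt was higher (edgeR adjusted p = 0.0514). Among the other neighbours of Galns every DHT library was also higher in Cyba (log2 fold change 0.46, edgeR adjusted p = 0.114). It was lower in Piezo1 and Zc3h18 (log2 fold changes -0.64 and -0.23, edgeR adjusted p = 0.099 and 0.283).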
